A study of Mus musculus with 6 samples.

Results

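The maternal histone supply was examined through 10 genes in germinal vesicle (GV) oocytes of the mouse, which are arrested before meiosis resumes. The genes were taken by gene symbol from the deposited read-count table: 5 histone variant genes (H1foo, H3f3a, H3f3b, H2afz and H2afx), 4 histone chaperone genes (Npm2, Hira, Asf1a and Nasp) and Slbp, whose protein binds histone messenger RNA. All 10 were found among 24369 rows, and all 10 passed the filter on low counts that left 14124 tested genes. The 6 libraries formed 3 groups of 2: Sudan I exposure with melatonin as a rescue, Sudan I exposure alone, and control. Oocytes of the first group are called melatonin oocytes below, and they too were exposed to Sudan I. Sudan I is an azo dye and melatonin a hormone of the pineal gland. The sources used here do not give strain, age, dose, route, duration or the number of oocytes or animals behind a library, so p-values measure only the spread between these samples, which may be technical. The libraries held 20669373 to 26065453 counts.

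A growing oocyte stores histones and their carriers for the divisions that follow fertilization. Core nucleosomes hold histones H2A, H2B, H3 and H4, and a linker histone binds the DNA where it enters and leaves the nucleosome. Most histones are made during DNA replication from clustered genes whose messenger RNAs end in a stem-loop, bound by the product of Slbp, in place of a poly(A) tail. Variant histones are made from polyadenylated messenger RNAs at any time, and chaperones hold histones and place them on DNA.

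The stem-loop can be looked for in the letters of each message. The stem-loop was searched as the stem letters GGNNCT, directly followed by the loop letters TNTN and the returning stem AGNNCC, after the stop codon of every protein-coding gene of the GENCODE M21 annotation (mouse build GRCm38), on the transcribed strand. It was found in 86 of 21877 genes (0.393%), of which 46 were among the 67 genes named Hist, the clustered histone genes. The opposite strand held it in 22 genes (0.101%). Among the 10 genes only H2afx held these letters. Its site, at chr9:44335235-44335260 (forward strand), is shown beside those of the 5 Hist genes with the most counts that held it, since it sets H2afx apart from the other 9; in mammalian cells H2AX is known to be made from both a stem-loop message and a longer polyadenylated one. The other sites lie at chr13:23739507-23739532 (Hist1h1c, forward), chr11:58949344-58949369 (Hist3h2ba, forward), chr11:58955167-58955192 (Hist3h2a, forward), chr13:23561898-23561923 (Hist1h3e, reverse) and chr13:23760795-23760820 (Hist1h4a, reverse). Capitals mark the 16 matched bases, and lower case the flanks.
H2afx: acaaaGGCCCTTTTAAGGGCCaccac
Hist1h1c: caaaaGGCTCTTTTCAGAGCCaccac
Hist3h2ba: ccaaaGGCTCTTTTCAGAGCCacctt
Hist3h2a: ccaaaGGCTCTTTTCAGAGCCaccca
Hist1h3e: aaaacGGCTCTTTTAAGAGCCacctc
Hist1h4a: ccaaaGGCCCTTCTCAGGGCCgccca
The H2afx site begins 49 bases after the last amino acid codon, with the stop codon counted in. The annotated transcript of 1384 bases runs on beyond the site. A match is a description of the letters and not a shown binding site.

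H3f3a and H3f3b encode the same histone, H3.3, the variant of H3 placed on DNA outside replication. Their coding sequences of 411 bases differ at 95 positions, 81 of them the last base of a codon, and are 76.9% identical. The longest run of identical letters is 23 bases, which bears on how far reads of the pair can be told apart. The first 90 coding bases of each are shown because they carry the histone tail and 20 of the differences, which are in capitals. H3f3a lies at chr1:180811837-180811926 and H3f3b at chr11:116023920-116024009 in this stretch, both on the reverse strand of GRCm38 and read from GENCODE M21 transcripts.
H3f3a: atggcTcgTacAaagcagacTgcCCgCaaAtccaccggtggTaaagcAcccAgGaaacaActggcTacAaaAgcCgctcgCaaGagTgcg
H3f3b: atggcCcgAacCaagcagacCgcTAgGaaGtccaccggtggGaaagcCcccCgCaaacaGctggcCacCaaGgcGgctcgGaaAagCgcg

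The cell type was checked on markers. All 16 oocyte markers passed the filter and summed to 28908 to 31561 CPM of library totals (the count scaled to a common library size), with Gdf9 at a mean of 6176 and the lowest, Figla, at 17.8. The 15 granulosa and cumulus markers summed to 674 and 784 CPM in melatonin oocytes, 685 and 678 CPM in Sudan I oocytes, and 657 and 696 CPM in control oocytes. Serpine2, Nr5a2, Esr2 and Gata4 made up 566 of their mean sum of 696 CPM, and other granulosa genes varied more between libraries. Inhbb, an inhibin and activin subunit gene, had 19.0 and 64.6 CPM in melatonin oocytes, 35.8 and 4.39 CPM in Sudan I oocytes, and 15.1 and 4.41 CPM in control oocytes. Inha, another subunit gene, had 27.2 and 94.4 CPM in melatonin oocytes, 40.8 and 21.4 CPM in Sudan I oocytes, and 41.7 and 57.0 CPM in control oocytes. Amh, the anti-Müllerian hormone gene, had 5.13 and 22.0 CPM in melatonin oocytes, 7.75 and 6.95 CPM in Sudan I oocytes, and 19.2 and 21.3 CPM in control oocytes. All 3 were highest in melatonin library 2, Amh by little, as were Fshr, Cyp19a1, Inhba and Hsd17b1. Foxl2, Amhr2 and Wt1 were highest in control library 2, Gata4 in control library 1, and Serpine2 and Nr5a2 in Sudan I library 2. Esr2 and Kitl were highest in melatonin library 1, and Kitl was lowest in melatonin library 2 (6.43 CPM). The part of granulosa RNA in the values below was not tested. The 12 markers of theca, stroma, vessels, blood and surface cells summed to 83.2 to 101 CPM, nearly all of it Pecam1 with a mean of 86.1, and the next, Star, had 1.71. Hbb-bs, Hba-a1 and Krt19 had 0 counts in all 6 libraries. The 10 histone genes held 0.599% and 0.601% of the counts in the 2 melatonin libraries, 0.562% and 0.579% in the Sudan I libraries, and 0.576% and 0.550% in the control libraries.

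None of the 10 genes differed past the threshold in any of the 3 comparisons, where 0.00708% (Sudan I against control), 0% (melatonin against Sudan I) and 0.00708% (melatonin against control) of all tested genes did. Below, a level is CPM after trimmed-mean (TMM) scaling, given for library 1 and then library 2 of a group. A fold change is on the log2 scale with its standard error (SE), and the threshold is a Benjamini-Hochberg adjusted p under 0.05 over all 14124 genes in edgeR's quasi-likelihood test. In bulk samples, fewer cells of a type and less RNA per cell cannot be told apart.

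**Figure D1:**
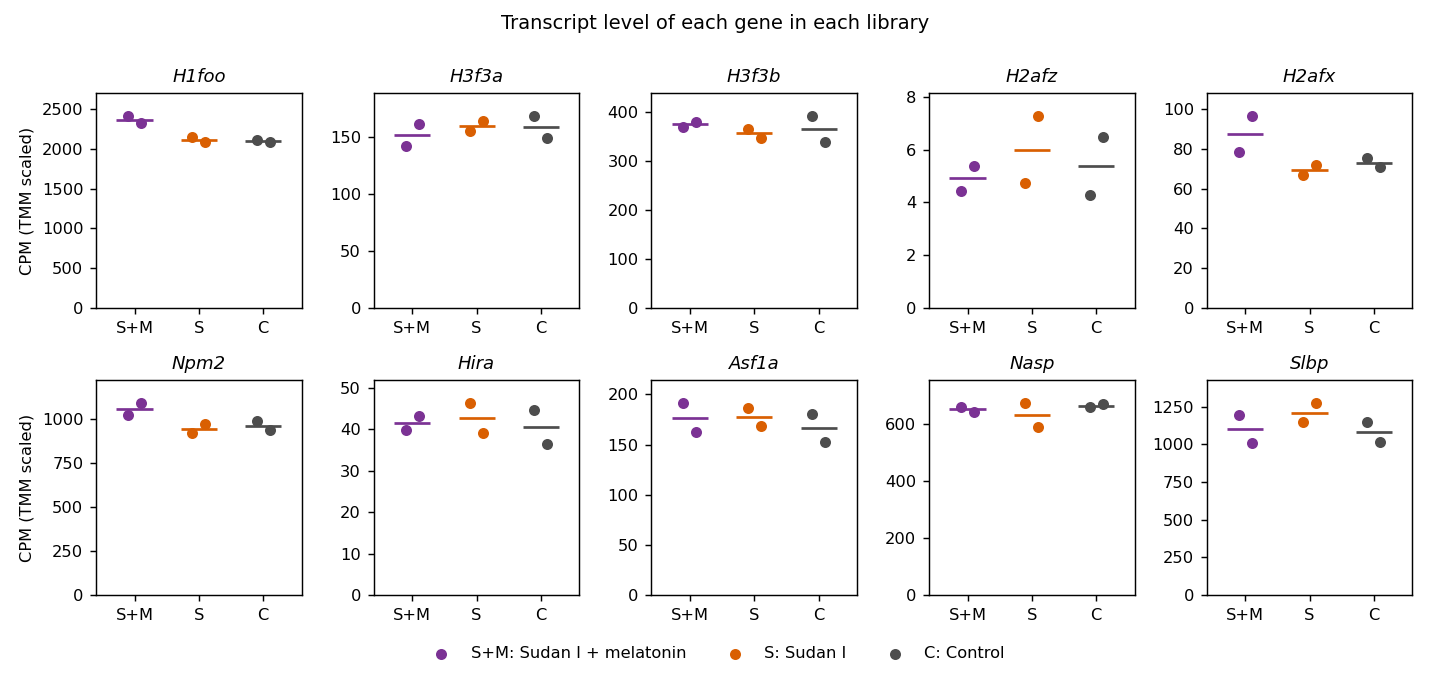
Level of each of the 10 genes in CPM (vertical axes, from 0) in the 2 libraries of each group (points) with the group mean (bar). Both melatonin libraries stand above the other 4 for H1foo, H2afx and Npm2, and the groups overlap for most other genes.

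H1foo encodes the oocyte-specific linker histone and lies on chromosome 6 from 115944938 to 115950236. It was the most abundant of the 10, with 36.4% to 39.4% of their counts in every library. Its level was 2407 and 2322 CPM in melatonin oocytes, 2146 and 2078 CPM in Sudan I oocytes, and 2111 and 2090 CPM in control oocytes. Both melatonin libraries were above the other 4, while the Sudan I and control ranges overlapped. The log2 fold change was 0.16 (SE 0.090) for melatonin against Sudan I and 0.17 (SE 0.090) for melatonin against control, with edgeR adjusted p of 0.994 and 0.956. Sudan I against control gave 0.0082 (SE 0.090), with a 95% interval of -0.19 to 0.21 (edgeR adjusted p = 0.9999).

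The H3.3 pair stood at unlike levels. H3f3b, on chromosome 11 from 116021912 to 116027962, had 371 and 381 CPM in melatonin oocytes, 366 and 349 CPM in Sudan I oocytes, and 392 and 340 CPM in control oocytes. H3f3a, on chromosome 1 from 180800832 to 180813943, had 142 and 162 CPM in melatonin oocytes, 155 and 164 CPM in Sudan I oocytes, and 168 and 149 CPM in control oocytes. For both genes the control libraries spanned both Sudan I values. The 6 fold changes of the pair lay between -0.073 (H3f3a, melatonin against Sudan I) and 0.073 (H3f3b, the same comparison), each smaller than its SE of 0.10 or 0.11.

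The split between the pair needs no scaling between libraries. H3f3b held 72.3% and 70.2% of the H3.3 counts in melatonin oocytes, 70.2% and 68.0% in Sudan I oocytes, and 70.0% and 69.6% in control oocytes. The group means were 71.3% ± 1.49 in melatonin, 69.1% ± 1.55 in Sudan I and 69.8% ± 0.318 in control oocytes (SD, n = 2 each). Melatonin library 1 had the highest share (exact binomial 95% interval 71.4% to 73.2%) and Sudan I library 2 the lowest (67.1% to 68.9%), and these intervals cover counting error only. The groups' means differed by no more than about the gap between the 2 melatonin or the 2 Sudan I libraries, and 2 libraries against 2 cannot give an exact two-sided permutation p under 0.333, so no test was made. Per kilobase of merged exons the mean share over 6 libraries was 73.4%, against 70.0% by counts. Gm12657, a processed pseudogene that shares sequence with H3f3a, has a row of its own with 542 and 618 counts in melatonin oocytes, 552 and 485 counts in Sudan I oocytes, and 588 and 492 counts in control oocytes. With these counted as H3f3a, an alternative chosen after seeing the data, the share was 68.7% and 67.1% in melatonin oocytes, 67.2% and 65.2% in Sudan I oocytes, and 66.8% and 67.0% in control oocytes. The level of the share therefore depends on how such reads were assigned, while the highest and lowest libraries were the same.

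**Figure D2:**
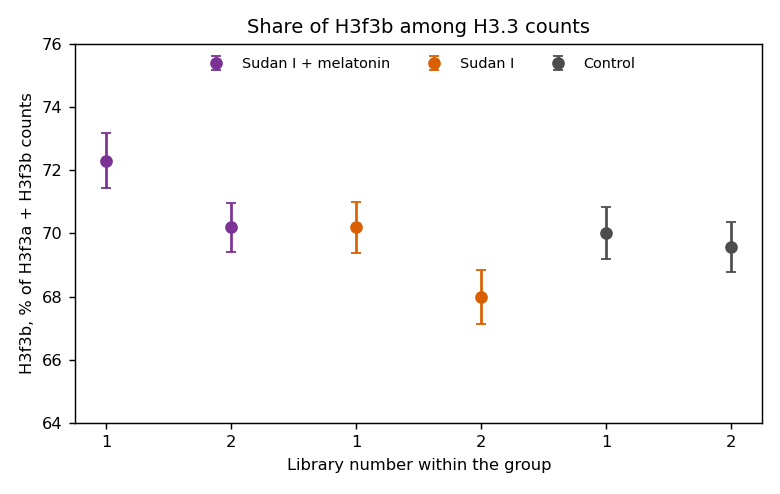
Share of H3f3b among the counts of H3f3a plus H3f3b (vertical axis in %, not starting at 0) in each library, with exact binomial 95% intervals. The shares run from 68.0% in Sudan I library 2 to 72.3% in melatonin library 1, and the 2 melatonin libraries and the 2 Sudan I libraries each lie about 2 points apart.

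Among the H2A variants, H2afx carries the serine that is phosphorylated at DNA breaks, and H2afz encodes H2A.Z, found at promoters and regulatory DNA. H2afx, on chromosome 9 from 44334694 to 44336077, had 78.4 and 96.4 CPM in melatonin oocytes, 66.9 and 71.7 CPM in Sudan I oocytes, and 75.5 and 70.7 CPM in control oocytes. Both melatonin libraries were above the other 4, with library 2 well above library 1. The log2 fold change of melatonin against Sudan I was 0.34 (SE 0.13), the only one of the 30 tests of these genes with an unadjusted p under 0.05 (0.026, edgeR adjusted p = 0.994). It was 0.48 without melatonin library 1 and 0.18 without melatonin library 2. Against control it was 0.26 (SE 0.13, edgeR adjusted p = 0.956), with 0.40 without melatonin library 1 and 0.10 without melatonin library 2, and for Sudan I against control -0.077 (SE 0.13, edgeR adjusted p = 0.9999).

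H2afz was the lowest and most variable of the 10. On chromosome 3 from 137864487 to 137866922, it had 90 and 132 counts in melatonin oocytes, 113 and 161 counts in Sudan I oocytes, and 94 and 170 counts in control oocytes. These are 4.45 and 5.39 CPM in melatonin oocytes, 4.73 and 7.26 CPM in Sudan I oocytes, and 4.29 and 6.48 CPM in control oocytes, so that library 2 was above library 1 in each group and the groups overlapped throughout. The coefficient of variation over the 6 libraries was 22.1%, against 4.74% to 13.7% for the other 9 genes. Its 95% intervals were the widest, for example -0.99 to 0.42 on the log2 scale for melatonin against Sudan I. A pair of pseudogenes shares 29.7% of the 100-base words of its transcript, and the authors' handling of such reads is not known, so its level is uncertain. Its paralog H2afv, which encodes a second H2A.Z protein, had 312 and 595 counts in melatonin oocytes, 364 and 444 counts in Sudan I oocytes, and 335 and 479 counts in control oocytes.

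Npm2 is the oocyte nucleoplasmin, a chaperone of H2A and H2B needed for the nuclear organisation of the egg. On chromosome 14 from 70647302 to 70659244, it had 1021 and 1089 CPM in melatonin oocytes, 918 and 972 CPM in Sudan I oocytes, and 988 and 938 CPM in control oocytes. Both melatonin libraries stood above the other 4. Its log2 fold change was 0.16 (SE 0.095, edgeR adjusted p = 0.994) against Sudan I and 0.13 (SE 0.095, edgeR adjusted p = 0.956) against control, while Sudan I against control gave -0.028 (SE 0.095). Without melatonin library 2 the value against control was 0.086. Over the 6 libraries the log2 CPM of Npm2 and H2afx had a Pearson r of 0.97, the highest of the 45 pairs, as a description over the same 6 libraries. Xpo7 overlaps exons of Npm2 on the same strand and had 3712 to 4956 counts, against 20673 to 26687 for Npm2.

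The H3.3 chaperone Hira and its partner Asf1a, which hands H3 and H4 to several deposition complexes, showed no separation of the groups. Hira, on chromosome 16 from 18877037 to 18970309, had 39.9 and 43.1 CPM in melatonin oocytes, 46.2 and 39.0 CPM in Sudan I oocytes, and 44.6 and 36.4 CPM in control oocytes. Its 3 log2 fold changes lay between -0.038 and 0.074 (SE 0.16). Asf1a, on chromosome 10 from 53596757 to 53609225, had 191 and 163 CPM in melatonin oocytes, 187 and 168 CPM in Sudan I oocytes, and 181 and 152 CPM in control oocytes. Library 1 was above library 2 in each group, and the fold changes lay between -0.0041 and 0.092 (SE 0.12). Asf1a shares exon sequence with Mcm9 on the opposite strand, which had 1045 to 1520 counts, and H3f3a, H2afx and Slbp also have antisense genes. Whether the counting used strand is not known, so reads of such partners cannot be told apart here. The annotated readthrough gene Gm28539 covers 62.8% of the 100-base words of Hira and has no row in the table.

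Nasp encodes a chaperone that stores H3 and H4. On chromosome 4 from 116601052 to 116627941, it had 661 and 642 CPM in melatonin oocytes, 673 and 590 CPM in Sudan I oocytes, and 659 and 669 CPM in control oocytes. It was the steadiest of the 10, with a coefficient of variation of 4.74%, and Sudan I library 2 was its lowest library. Its log2 fold changes lay between -0.072 and 0.044 (SE 0.099).

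Slbp, on chromosome 5 from 33634952 to 33652574, had 1197 and 1010 CPM in melatonin oocytes, 1148 and 1271 CPM in Sudan I oocytes, and 1148 and 1013 CPM in control oocytes. Both Sudan I libraries were above both control libraries, by a margin of under 1 CPM at the nearest pair. The log2 fold change of Sudan I against control was 0.16 (SE 0.12, 95% interval -0.094 to 0.42, edgeR adjusted p = 0.9999), and that of melatonin against Sudan I was -0.13 (SE 0.12, edgeR adjusted p = 0.994). Leaving out 1 library moved the 2 values to between 0.077 (without control library 2) and 0.26 (without control library 1), and to between -0.26 (without melatonin library 1) and -0.014 (without melatonin library 2). The melatonin and control ranges overlapped almost fully (0.030, SE 0.12).

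**Figure D3:**
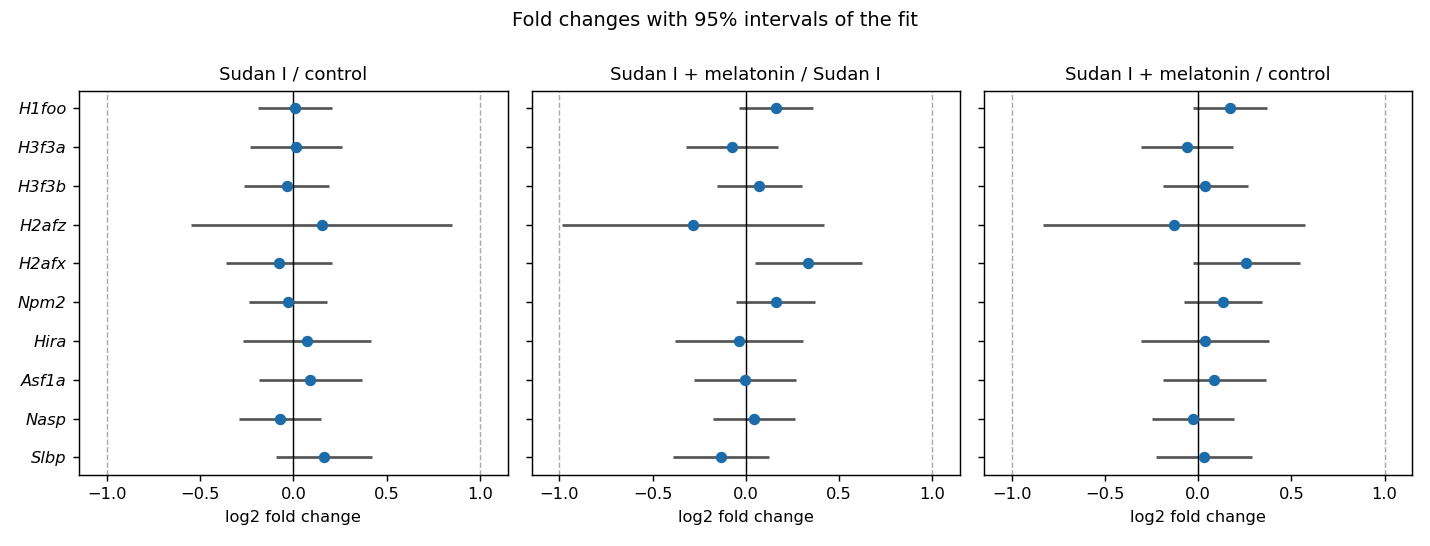
Log2 fold changes (points) with 95% intervals of the edgeR fit (lines) for the 10 genes in the 3 comparisons; the dashed lines mark 1 log2 unit. All 30 intervals lie inside the dashed lines, and only that of H2afx for melatonin against Sudan I leaves out 0.

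Over all tested genes edgeR called 1 gene, Tex15, in Sudan I against control, 0 in melatonin against Sudan I, and again only Tex15 in melatonin against control. DESeq2 called 12, 6 and 12 genes and limma-voom 1, 0 and 1. DESeq2 and limma-voom also called 0 of the 10 in each comparison, and at an unadjusted p under 0.05 edgeR had 0, 1 and 0 (3.16%, 3.83% and 4.6% of all genes). The median fold change of the 10 was 0.011, 0.020 and 0.037 on the log2 scale, against -0.0024, -0.0060 and -0.0051 over all tested genes, and 6, 5 and 7 of the 10 were above 0 (49.4%, 48.8% and 48.9% of all genes).

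The intervals give the size of difference these libraries could still hold. The 95% interval lay within 1 log2 unit of 0, a 2-fold change, for 10 of 10 genes in each comparison, against 69.9%, 70.1% and 68.9% of all tested genes. It lay within 0.5 log2 unit, a 1.41-fold change, for 9 of 10 genes in Sudan I against control (40.4% of all genes), 8 of 10 in melatonin against Sudan I (38.2%) and 8 of 10 in melatonin against control (37.6%). H2afz was outside in each comparison and H2afx in both with melatonin. By level per kilobase of merged exons, each of the 10 but Hira and H2afz stood above at least 91.8% of tested genes. The part of level in the width of the intervals was not tested.

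Libraries that did not overlap were read against the same count over all genes. In melatonin against Sudan I, 4 of 10 genes were higher in both melatonin libraries than in both Sudan I libraries (H1foo, H3f3b, H2afx and Npm2; 14.8% of all genes), and 0 were lower (15.9%). In melatonin against control, 3 of 10 were higher (H1foo, H2afx and Npm2; 16.5%) and 0 lower (17%). In Sudan I against control, 1 of 10 was higher (Slbp; 16.1%) and 0 lower (15.9%). These comparisons share libraries. For H1foo, H2afx and Npm2 both melatonin libraries exceeded all 4 others, as they did for 7.55% of all tested genes.

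Length moved with the melatonin values over all genes. H1foo, Npm2 and H2afx have 1201, 1036 and 1384 bases of merged exons, the shortest of the 10. By longest transcript H2afz, with 1069 bases, is shorter than H1foo (1192) and H2afx (1384). By merged exons it has 1776 bases, outside the class under 1.5 kb below. Its log2 fold changes with melatonin were -0.28 (SE 0.32) against Sudan I and -0.13 (SE 0.32) against control. Classes of length are by merged exons. Over all 1100 tested genes under 1.5 kb the median log2 fold change was 0.11 for melatonin against Sudan I and 0.13 for melatonin against control, with 65.0% and 67.1% of them above 0. Over the 4407 genes of 6 kb or more it was -0.034 and -0.051, and for Sudan I against control the same classes had 0.017 and -0.023. The part of length in the values of H1foo, Npm2 and H2afx was not tested.

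Levels can be compared between genes only per length. In CPM per kilobase of merged exons, as means of 6 libraries, H1foo had 1826 ± 115 (SD, n = 6), Npm2 953 ± 59.5, Slbp 186 ± 17.0, H3f3b 123 ± 6.55 and Nasp 86.3 ± 4.09. H2afx with 55.3 ± 7.57, Asf1a with 47.7 ± 4.13 and H3f3a with 44.7 ± 2.80 followed, and each neighbouring pair of these 3 overlapped in range. Hira had 6.68 ± 0.601 and H2afz 3.06 ± 0.676. H1foo was above 99.96% of all tested genes with a length and Npm2 above 99.88%, whereas H2afz was above 45.2%. With the longest transcript in place of merged exons the levels of Slbp, Nasp and H2afz were 387, 206 and 5.08, Nasp passed H3f3b (146) and Asf1a (78.9) passed H2afx, while the first 3 and the last 3 places kept their genes.

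**Figure D4:**
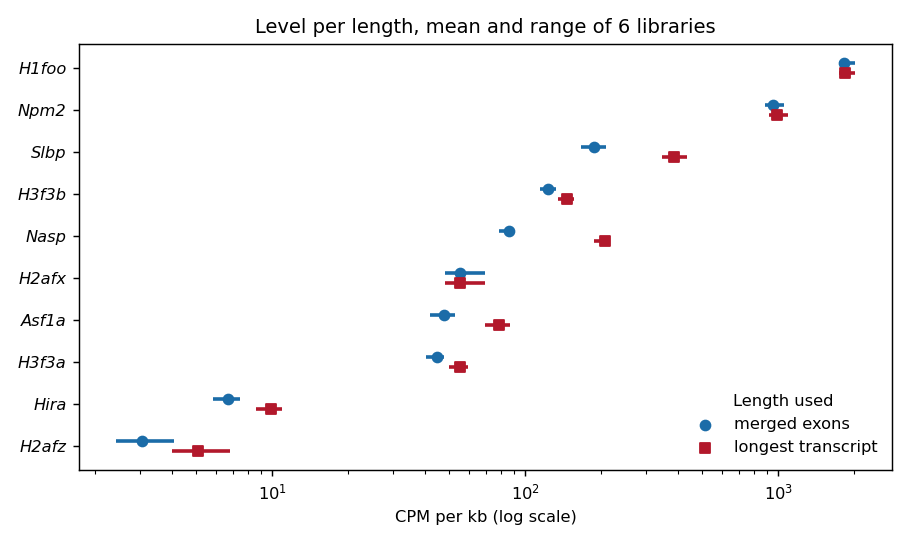
Level per length of the 10 genes in CPM per kilobase (log axis), as the mean (symbol) and range (line) of 6 libraries, with merged exons or the longest annotated transcript as length. H1foo and Npm2 lead by either length, and Hira and H2afz are lowest.

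Some of the 10 have a close relative. Per kilobase of merged exons, H1foo had 1826 CPM and the replacement linker histone gene H1f0 50.5, and another linker histone gene, H1fx, 48.6. Npm2 had 953 and Npm1, the nucleolar nucleophosmin found in most cells, 30.8. Asf1a had 47.7 and its paralog Asf1b 55.6, and H2afv had 11.1 beside 3.06 for H2afz.

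The Hist genes, many of whose messages Slbp binds in dividing cells, had few counts. Their 68 rows summed to 1022 and 1288 counts in melatonin oocytes, 1229 and 1038 counts in Sudan I oocytes, and 1035 and 999 counts in control oocytes. Rows in which the stem-loop letters were found held 431 and 628 of these counts in melatonin oocytes. They held 518 and 450 in Sudan I oocytes, and 512 and 473 in control oocytes. The search matched only 46 of the 67 annotated genes named Hist, and a row without a match is not shown to lack a stem-loop. H2afx alone had 1587 and 2361 counts in melatonin oocytes, 1597 and 1590 counts in Sudan I oocytes, and 1656 and 1855 counts in control oocytes. All these are raw counts, not divided by length. Per kilobase of merged exons H2afx had 55.3 CPM, Hist1h2aa 19.4, Hist1h2bc 11.6 and Hist1h1c 3.87. The Hist rows were not summed per length. Of the 68 rows 18 passed the filter and 13 had 0 counts in every library. Hist1h2bc, Hist1h2aa and Hist1h1c were the only 3 with a mean of 100 counts or more, and Hist1h2bc alone held 27.8% of the sum. Messages without a poly(A) tail are lost in a poly(A) selection; whether one was made is not known, and its part in these counts was not tested. Near-identical copies among them make single rows uncertain.

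**Figure D5:**
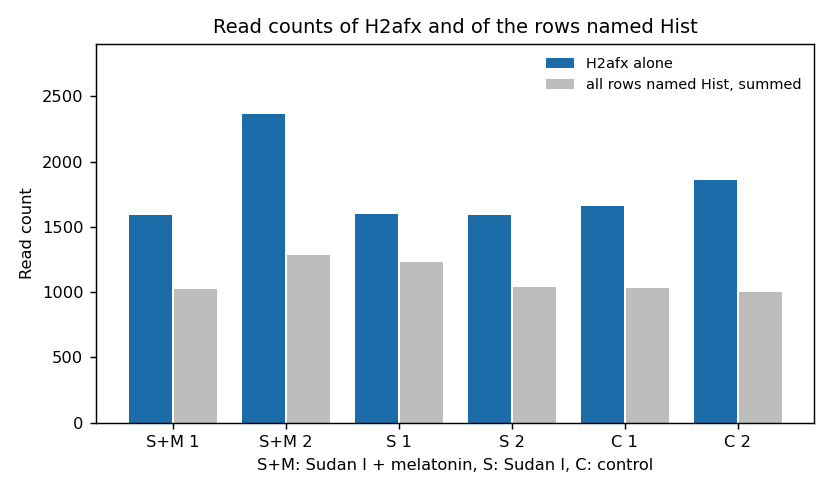
Raw read counts (vertical axis, from 0) of H2afx alone and of all 68 rows named Hist summed, in each library; libraries differ in total count. In raw counts H2afx exceeds the sum in all 6 libraries, from 1.30 times in Sudan I library 1 to 1.86 times in control library 2. Counts are not divided by length, so the bars do not compare levels.

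Among related genes in 6 lists, 0 passed the threshold in any comparison by edgeR. At an unadjusted p under 0.05 each list of 16 to 22 tested genes held 0 to 2 in each comparison, where 3.16%, 3.83% and 4.6% of all tested genes passed in Sudan I against control, melatonin against Sudan I and melatonin against control. DESeq2 called only Chd2. The list medians below stand against medians over all tested genes of -0.0024, -0.0060 and -0.0051 in the same comparisons. By length of merged exons these were 0.017, 0.11 and 0.13 over genes under 1.5 kb. They were 0.0029, -0.015 and -0.007 from 3 to 6 kb, and -0.023, -0.034 and -0.051 at 6 kb or more. The lists hold genes of unlike length and were not matched for it. The list of linker histones and other histone variants also holds Hist genes, and 16 of its 32 matched genes were tested. The tested genes not named Hist were Cenpa, H1f0, H1fx, H2afj, H2afv, H2afy and H2afy2, and the rest were Hist genes. Median log2 fold changes of the 16 were -0.068 for Sudan I against control, 0.17 for melatonin against Sudan I and 0.14 for melatonin against control. Of the 16, 5, 12 and 13 were above 0, where 49.4%, 48.8% and 48.9% of all tested genes were. Of the genes under 1.5 kb, 53.5%, 65.0% and 67.1% were, and of those of 6 kb or more 43.8%, 41.9% and 37.2%. Hist1h2bc, an H2B gene, had the smallest p of the list, with 0.70 (SE 0.25) for Sudan I against control (edgeR adjusted p = 0.9999). It stood at 16.9 and 11.4 CPM in melatonin oocytes, 15.6 and 16.8 CPM in Sudan I oocytes, and 11.9 and 8.12 CPM in control oocytes, and the fold change was 0.45 without control library 2. H2afj, an H2A variant gene, had 0.55 (SE 0.24) for melatonin against Sudan I (edgeR adjusted p = 0.994), with 11.3 and 17.4 CPM in melatonin oocytes against 8.92 and 10.7 CPM in Sudan I oocytes, and was 0.21 without melatonin library 2 and 0.83 without melatonin library 1.

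All 22 genes of the other H3.3 and H3-H4 chaperones were tested, with medians of -0.027, 0.0086 and 0.018 for Sudan I against control, melatonin against Sudan I and melatonin against control, and 9, 11 and 11 above 0. Chaf1a, the large subunit of the replication-coupled chaperone CAF-1, had 0.25 (SE 0.093) for melatonin against Sudan I, with 807 and 804 CPM in melatonin oocytes against 685 and 665 CPM in Sudan I oocytes. Hat1, which acetylates new histone H4, had -0.27 (SE 0.12), with 72.3 and 65.8 CPM in melatonin oocytes against 77.9 and 88.8 CPM in Sudan I oocytes. Both had an edgeR adjusted p of 0.994, and Hat1 had -0.18 without Sudan I library 2. Rbbp7, a histone-binding subunit of many complexes, was the most abundant of the list per length, with 367 CPM per kilobase of merged exons.

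The 21 H2A-H2B chaperones, nucleoplasmins and FACT genes had medians of -0.043, 0.087 and 0.029 in the same order, with 9, 17 and 13 of 21 above 0. Vps72 and Yeats4, subunits of H2A.Z-loading complexes, had 0.39 (SE 0.12) and 0.33 (SE 0.13) for melatonin against control, both with edgeR adjusted p = 0.956. Vps72 stood at 108 and 93.3 CPM in melatonin oocytes against 80.1 and 72.7 CPM in control oocytes, and Yeats4 at 70.1 and 87.1 CPM in melatonin oocytes against 61.3 and 63.6 CPM in control oocytes. Without melatonin library 2 the value of Yeats4 was 0.17. Anp32b led this list per length, with 161 CPM per kilobase.

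The 20 exchange remodellers had medians of 0.027, 0.014 and 0.054, with 13, 12 and 11 above 0. Chd2, a remodeller linked to H3.3, had 1.58 (SE 0.37) for melatonin against control (edgeR adjusted p = 0.956), at 28.7 and 15.1 CPM in melatonin oocytes, 8.12 and 17.6 CPM in Sudan I oocytes, and 7.29 and 7.28 CPM in control oocytes. DESeq2 called it in that comparison (adjusted p = 0.00879), and edgeR did so with no filter on low counts (adjusted p = 1.13e-08), while its other alternatives gave an adjusted p of 0.399 to 1. Without melatonin library 1 its fold change was 1.05. Epc1, of a histone acetyltransferase complex, led this list with 60.2 CPM per kilobase. Ing3 had 0.30 (SE 0.13) for Sudan I against control (edgeR adjusted p = 0.9999).

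The 19 tested genes that make, process and destroy histone messages had medians of -0.018, -0.036 and -0.016, with 9, 7 and 8 above 0. The 19 genes for H2AX phosphorylation, its removal and its readers had medians of -0.013, -0.011 and -0.017, with 9, 8 and 9 above 0. Cstf2, a 3′-end processing factor, had -0.39 (SE 0.15) for melatonin against control (edgeR adjusted p = 0.956), at 56.0 and 47.2 CPM in melatonin oocytes against 59.5 and 75.9 CPM in control oocytes, and had -0.21 without control library 2. Ncbp1, which binds the cap of messenger RNA, had -0.40 (SE 0.20) in the same comparison, and Lsm10, of the U7 particle that cuts histone messages, led the list with 62.4 CPM per kilobase. Rnf168, a ubiquitin ligase at DNA breaks, had the smallest p of its list, with -0.22 (SE 0.11) for melatonin against Sudan I (edgeR adjusted p = 0.994), which was -0.081 without melatonin library 2 and -0.37 without melatonin library 1. Atm, a kinase that phosphorylates H2AX, had -0.43 (SE 0.25) for melatonin against control (edgeR adjusted p = 0.956), which was -0.10 without melatonin library 2 and -0.83 without melatonin library 1.

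For each of the 10 genes the gene most alike in log2 CPM over the 6 libraries was sought among 9453 genes with a mean of at least 5 CPM. The highest Pearson r ran from 0.982 (Glmp, for H3f3a) to 0.9997 (Thumpd1, for H3f3b), with Whsc1 for Slbp, Zfp830 for H1foo, Ppie for Npm2, Tead3 for H2afx, Pmpcb for H2afz, Tmem107 for Hira, Lig3 for Nasp and Mill1 for Asf1a between them. The 6 points are the same libraries for every gene, and between 39 and 237 genes had an r over 0.9 with each of the 10.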

How the data were processed

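RNA was sequenced from 6 libraries of mouse oocytes, in 3 groups of 2 taken from the titles in the labels. The deposited values are raw read counts per gene symbol, made by the authors; the labels' protocols state a standard Illumina library preparation, and the aligner, counting program, build and strand setting stand in none of the sources used here. Of 24369 rows, 27 carry a date in place of a symbol; 23 of them were tested and none is named.

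The test was edgeR 4.0.16 under R 4.3.3 (filterByExpr, minimum count 10; TMM; 1 quasi-likelihood fit of all 6 libraries with 3 residual degrees of freedom, common biological coefficient of variation 0.167), checked on simulated data. SE is the fold change divided by the square root of F, and 95% intervals use the fit's t distribution. DESeq2 1.42.0, limma-voom (limma 3.58.1), other scalings, no filter, a replicate block, 2 groups only and leaving out each library were alternatives. Python 3.11.15 did the rest. GENCODE M21 (GRCm38) gave positions, lengths and transcript letters; the authors' build may differ. Libraries of a group differed by far more than sampling noise (chi-square per gene 13.9 to 22.7, where noise gives about 1).

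The 10 genes, the lists and the tests were chosen with earlier results of these data known. Named were the 10 genes, the 2 genes of each list with the smallest p and the 1 with the highest level per length, the gene most alike each of the 10, genes past the threshold and markers; paralogs, overlapping genes and Hist genes were named after their values were seen. Same-numbered libraries are not stated to be paired.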

Additional observations from a re-analysis of the deposited data

How the results depend on the processing

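Across 390 alternative values of the 10 genes' fold changes 0 passed the threshold (smallest adjusted p 0.472) and 30 had the opposite sign, each when 1 library was left out. Their ranges over the left-out libraries, on the log2 scale, were as follows. Sudan I against control: H1foo -0.013 to 0.031, H3f3a -0.071 to 0.103, H3f3b -0.13 to 0.071, H2afz -0.19 to 0.48, Hira -0.066 to 0.23, Npm2 -0.069 to 0.016, Nasp -0.17 to 0.020 and Asf1a -0.026 to 0.22. Melatonin against Sudan I: H3f3a -0.17 to 0.021, H2afz -0.56 to 0.055, Hira -0.16 to 0.091, Nasp -0.049 to 0.14 and Asf1a -0.12 to 0.11. Melatonin against control: H3f3a -0.15 to 0.034, H3f3b -0.062 to 0.15, H2afz -0.39 to 0.20, Hira -0.105 to 0.19, Asf1a -0.031 to 0.22 and Slbp -0.093 to 0.15. The cause was not tested. Ranges that kept their sign were, for Sudan I against control, H2afx -0.13 to -0.025 and Slbp 0.077 to 0.26. For melatonin against Sudan I they were H1foo 0.14 to 0.19, H3f3b 0.037 to 0.11, H2afx 0.18 to 0.48, Npm2 0.11 to 0.21 and Slbp -0.26 to -0.014. For melatonin against control they were H1foo 0.15 to 0.20, H2afx 0.10 to 0.40, Npm2 0.086 to 0.18 and Nasp -0.045 to -0.0047.

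Over all genes, calls in Sudan I against control, melatonin against Sudan I and melatonin against control numbered 1, 0 and 1 by edgeR, 88, 67 and 93 with no filter, and 12, 6 and 12 by DESeq2. Leaving out 1 library gave 1 to 4, 0 to 1 and 1 to 3. Of the list genes, checked after seeing the data, 1 (Chd2) was called for melatonin against control by DESeq2 and with no filter. With the replicate block the counts were 1, 0 and 1, and 0 of the 10 genes. Same-numbered libraries deviated from their group means with correlations of 0.053, -0.062 and 0.069 across genes, and the table's header codes carry another number than the titles in 3 of 6 libraries. H2afz, with 90 to 170 counts a library, had the widest intervals of the 10.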
